A study of Mus musculus with 198 samples.

Results

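The genes described here are 40 genes of synaptic vesicle release, taken by symbol as a fixed list: the proteins of the vesicle membrane, the vesicular glutamate transporters, the calcium sensors, the SNARE fusion machinery, the scaffold of the active zone and the endocytic proteins that recover the membrane. All probes annotated to these symbols were used, which gave 58 probes to 37 of the 40 genes, on an array of 25697 probes to 16593 genes. Sv2c, Stxbp5 and Unc13a had no probe. Of the 58 probes, 47 (32 genes) were detected above the negative controls on at least 20% of the arrays of either tissue and 45 (31 genes) on at least 20% in both. The other 11 probes were not, and 5 genes were represented only by such probes: Syn3, Syt2, Syt7, Snap25 and Bsn. The single Snap25 probe was detected on 0% of the arrays of either tissue, so that the level of this SNARE protein's transcript could not be read, and Snap25 and Bsn, with Syn3, Syt2 and Syt7, take no part in what follows.

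Gene expression was measured in the Hybrid Mouse Diversity Panel, a panel of inbred mouse strains assembled to combine classical inbred strains with sets of recombinant inbred strains. Whole hippocampus and whole striatum were taken from young adult male mice and hybridised to 1-colour bead arrays, with 99 strains in hippocampus, 97 in striatum and 96 strain labels in common. The strains fell into 30 BXD strains, derived from the strains C57BL/6J (B6) and DBA/2J (DBA), 28 AXB or BXA strains, derived from A/J (AJ) and B6, 11 BXH strains in hippocampus and 10 in striatum, derived from B6 and C3H/HeJ (C3H), and 30 other inbred strains in hippocampus and 29 in striatum. Each strain had 1 array per tissue except B6Cc3, which had 2 that were averaged. No group carried a transgene, and the study's methods describe fear conditioning of the panel's male mice and then removal of the brains, without saying whether every mouse behind an array had been tested. Whether a sample held 1 animal or several is not given in the sources used here. Strain and array error are not separated with 1 array per strain, the strains are related to each other, and p-values treat them as exchangeable.

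Neurons store transmitter in small vesicles that the transporters fill, that the synapsins tether, and that dock at the active zone. On arrival of calcium the synaptotagmins act on the SNARE complex, which joins the membrane of the vesicle to that of the terminal, and dynamin and its partners then pinch the membrane back. The principal neurons of hippocampus and cortex release glutamate, whereas most neurons of the striatum are GABAergic medium spiny neurons. Most glutamatergic terminals in striatum belong to neurons whose cell bodies lie in cortex and thalamus.

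To show the sequence from which 4 members start, the 300 bases around the first listed start of each are given below from RefSeq (GRCm38.p6), 250 bases before the start to 50 after it. Slc17a7 (chr7:45163671-45163970, plus strand), Stx1a (chr5:135023232-135023531, plus strand), Amph (chr13:18948101-18948400, plus strand) and Syn1 (chrX:20920869-20921168, minus strand) were chosen because they stood in the most strongly co-varying pairs in striatum. Capitals mark the motifs searched on both strands, which were the GC box GGGCGG, the cyclic AMP response element TGACGTCA and the left part of the RE1 element TTCAGCACC. On the opposite strand the GC box reads CCGCCC, and 2 such copies overlap in Slc17a7.
Slc17a7: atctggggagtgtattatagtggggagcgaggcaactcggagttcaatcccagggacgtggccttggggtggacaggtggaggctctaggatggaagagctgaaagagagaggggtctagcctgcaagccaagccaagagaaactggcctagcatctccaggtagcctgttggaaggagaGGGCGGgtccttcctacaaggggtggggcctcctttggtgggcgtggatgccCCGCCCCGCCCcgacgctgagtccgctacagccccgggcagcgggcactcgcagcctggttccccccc
Stx1a: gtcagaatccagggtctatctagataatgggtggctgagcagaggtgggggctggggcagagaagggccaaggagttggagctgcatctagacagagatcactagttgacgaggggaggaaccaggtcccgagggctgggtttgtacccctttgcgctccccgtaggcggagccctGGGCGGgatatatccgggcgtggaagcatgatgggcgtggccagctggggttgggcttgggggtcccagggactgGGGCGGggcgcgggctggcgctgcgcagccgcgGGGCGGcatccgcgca
Amph: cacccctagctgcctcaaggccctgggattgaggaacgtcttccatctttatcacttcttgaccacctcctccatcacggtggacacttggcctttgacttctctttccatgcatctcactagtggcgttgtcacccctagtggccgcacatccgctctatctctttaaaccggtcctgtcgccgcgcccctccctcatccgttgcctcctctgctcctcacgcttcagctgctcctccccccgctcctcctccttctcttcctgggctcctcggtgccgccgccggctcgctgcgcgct
Syn1: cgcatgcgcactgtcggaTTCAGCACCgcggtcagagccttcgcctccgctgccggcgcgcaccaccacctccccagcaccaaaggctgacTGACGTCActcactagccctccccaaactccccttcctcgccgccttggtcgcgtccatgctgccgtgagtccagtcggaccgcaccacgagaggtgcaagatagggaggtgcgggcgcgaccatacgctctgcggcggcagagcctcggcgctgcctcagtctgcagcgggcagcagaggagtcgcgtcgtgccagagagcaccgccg
A GC box stood in the windows of 23 of the 30 members matched, and in 35.9% of all 27025 promoter windows of this length. The cyclic AMP response element was found in 1 member, Syn1, and in 1.88% of all windows. The RE1 left part was found in Syn1 and Unc13a, against 0.359% of all windows. The windows of Slc17a7 and Stx1a held 3 GC boxes each, that of Amph none of the motifs, and that of Syn1 an RE1 left part and a response element. A match describes the letters in this window and no more.

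Several arrays need naming before the results. Probes called detected made up 22.4% to 49.5% of an array in hippocampus (median 43.7%) and 35.2% to 46.4% in striatum (median 43.9%). Hippocampus AXB19b stood apart from the arrays of its tissue (median of its rank correlations 0.615), as did striatum SM and NZW (0.856 and 0.890). These 3 arrays were left out of all comparisons across strains. The striatum array of KK went against its tissue label, because its mean over 7 detected medium spiny neuron markers was 8.93 log2 units, whereas the median striatum array was at 12.70 and the highest hippocampus array at 9.48. Its cortical marker mean was the highest in striatum, at 9.58. The labels AXB15 and AXB19 did not pair between the tissues: over 621 probes that agreed closely between tissues, hippocampus AXB15 was most like striatum AXB19b (r = 0.798, 0.321 with its own label) and hippocampus AXB19 most like striatum AXB15 (r = 0.878, 0.411 with its own label), which is 2 of 93 labels checked. Values without these arrays are given beside the results they lead.

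The first question was how the level of each gene differed between hippocampus and striatum. Most of the detected release genes were higher in hippocampus, although few by a large factor. At an adjusted p under 0.05 (limma, Benjamini-Hochberg adjustment over all 12775 probes tested), 35 of 47 member probes were higher in hippocampus and 7 higher in striatum, beside 36.7% and 38.6% of all probes tested. At 2-fold or more, 7 member probes were higher in hippocampus and 1 in striatum, beside 3.90% and 3.52% of all probes. The median difference of the member probes was 0.54 log2 units toward hippocampus, against -0.01 for all probes. The deposited hippocampus signals equalled the authors' processed values and the striatum signals did not, each tissue forms a table of its own, and tissue and table cannot be told apart. In tissue of many cell types, fewer cells of a type and less RNA per cell cannot be told apart either. Markers of the cell types of each tissue differed too: the mean of 6 cortical excitatory neuron markers spanned 8.41 to 9.46 in hippocampus and 6.21 to 8.86 in striatum without the arrays named above, that of 4 hippocampal neuron markers 10.22 to 11.23 and 7.99 to 9.42, and their part in the differences was not tested. Of the cortical markers, Lamp5 and Bhlhe22 were not detected in either tissue, and Neurod6 was under the 20% share in striatum.

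The vesicular glutamate transporters, which load glutamate into the vesicle, showed the largest differences. The level of Slc17a6, the transporter VGLUT2 (chromosome 7), ran from 9.83 (AXB8) through a median of 11.18 to 12.17 (LPJ) in hippocampus and from 6.54 (AXB12) through 8.68 to 11.02 (BXH9) in striatum. The ranges overlapped, with 14 of 97 striatum strains at or above the lowest hippocampus strain. Slc17a6 was 5.39-fold higher in hippocampus (log2 difference 2.43 ± 0.11 SE, limma adjusted p = 3.51e-56), and 5.51-fold without the 3 arrays apart and striatum KK. Within a strain it was higher in hippocampus in 91 of the 92 strains left.

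Slc17a7 (chromosome 7) is the transporter VGLUT1 of cortical and hippocampal principal neurons. It ran from 11.37 (AXB13) through 12.30 to 13.82 (C3H) in hippocampus and from 7.40 (AXB12) through 10.71 to 13.99 (KK) in striatum. Hippocampus C3H also had the highest cortical and medium spiny marker means of its tissue, 9.46 and 9.48. The part of such tissue in the levels of C3H was not tested. The single highest striatum value, that of KK, lay above every hippocampus strain. Without KK and the arrays apart the highest striatum strain was at 12.74 (BXH22), and 22 of 94 striatum strains still lay within the hippocampus range. The difference was 3.36-fold (log2 1.75 ± 0.13 SE, limma adjusted p = 2.11e-27) and 3.53-fold without those 4 arrays, and it held within 90 of 92 strains. In hippocampus, the strain with the highest Slc17a6, LPJ, also had the highest mean of 5 thalamic neuron markers (9.80, tissue median 7.64), and across 98 strains the Slc17a6 level and that mean had r = 0.455. The part of such tissue in the level of Slc17a6 was not tested.

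**Figure D1:**
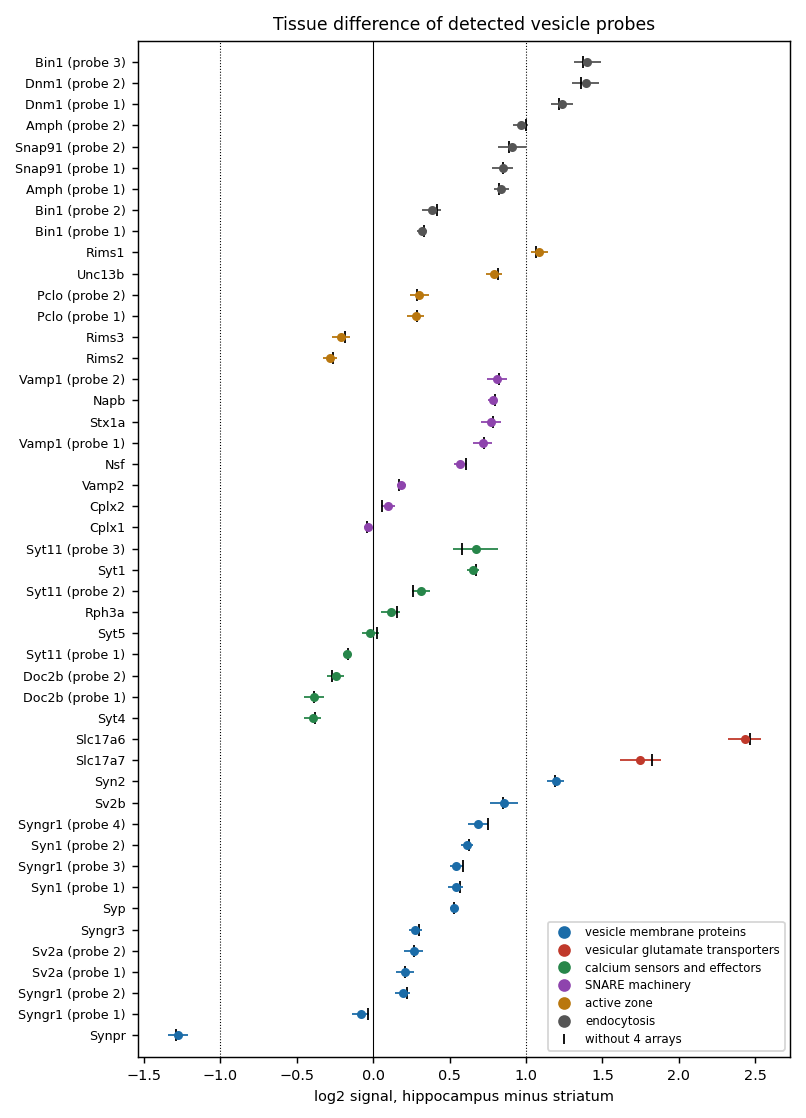
Log2 signal in hippocampus minus that in striatum for each of the 47 member probes tested, grouped and coloured by role, with bars of 1 SE, black ticks for the value without the 4 arrays named above and dotted lines at 2-fold. Slc17a6 and Slc17a7 lie farthest to the hippocampus side, at 2.43 and 1.75, and Synpr is the only probe past 2-fold on the striatum side, at -1.28, with its hippocampus level near background.

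Among the vesicle membrane proteins, 11 of 13 probes tested were higher in hippocampus, 1 was higher in striatum and 1 did not pass. Syn2, a synapsin that holds vesicles in the reserve pool (chromosome 6), ran from 12.44 (AXB19b) through 13.93 to 14.39 in hippocampus and from 11 (NZW) through 12.62 to 13.36 in striatum. Without the 4 arrays named above the lowest hippocampus strain was C3H at 12.59, and 11 of 98 hippocampus strains lay at or below the highest striatum strain. Syn2 was 2.29-fold higher in hippocampus (log2 1.19 ± 0.05 SE, limma adjusted p = 5.09e-54), in 92 of 92 strains.

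Synpr, synaptoporin, a relative of synaptophysin (chromosome 14), was the one member called at 2-fold higher in striatum. It was near background in hippocampus, where it was detected on 9% of arrays, and ran from 4.59 through 5.0 to 6.53 there. In striatum it was detected on 72.4% of arrays and ran from 5.11 through 6.46 to 7.75. The fitted difference was -1.28 ± 0.06 SE (limma adjusted p = 2.98e-47), and 1 of 92 strains had it higher in hippocampus. Since the hippocampus level lay near background, the size is bounded only from below: against the lowest signal detected on each hippocampus array, or the probe's own where higher, Synpr was at least 1.14-fold higher in striatum, so that the 2-fold call rests on values near background. Syp, synaptophysin itself (X chromosome), differed by 1.44-fold, with little spread in either tissue: 14.13 through 14.34 to 14.69 in hippocampus and 13.39 through 13.83 to 14.38 in striatum, with 6 of 97 striatum strains reaching the hippocampus range (log2 0.53 ± 0.02 SE, limma adjusted p = 2.29e-55).

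The calcium sensors and effectors were split. Of 9 probes, 3 were higher in hippocampus, 4 higher in striatum and 2 did not pass. Syt1, the main fast calcium sensor of forebrain synapses, was 1.57-fold higher in hippocampus, running from 11.56 through 13.56 to 13.95 there and from 12.28 through 12.86 to 13.59 in striatum (limma adjusted p = 7.91e-39), and 11.56 was the outlying array AXB19b, without which the lowest hippocampus strain was at 12.87. Syt4, a synaptotagmin that also marks dense-core vesicles, lay the other way, at 11.10 through 12.72 to 12.99 in hippocampus and 10.54 through 13.12 to 13.45 in striatum (log2 -0.40 ± 0.06 SE, limma adjusted p = 4.40e-11). Doc2b, a high-affinity sensor of spontaneous release, was likewise higher in striatum on both of its probes, by 1.19-fold and 1.31-fold. Syt5 and Rph3a, the latter a binding partner of Rab3, differed by -0.02 and 0.12 log2 units and did not pass.

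No SNARE probe reached 2-fold, and 6 of 8 were higher in hippocampus at any fold. Napb, beta-SNAP, an adaptor with which Nsf takes spent SNARE complexes apart, was the most regular of them. It ran from 13.14 through 13.53 to 13.89 in hippocampus and from 12.29 through 12.71 to 13.80 in striatum, the highest being KK. It was higher in hippocampus in 92 of 92 strains, by 1.72-fold (limma adjusted p = 1.54e-63). Nsf, the ATPase of the pair, differed by 1.49-fold, Stx1a, a SNARE of the presynaptic membrane, by 1.71-fold, and the vesicle SNAREs Vamp1 and Vamp2 by 1.64-fold and 1.76-fold (the Vamp1 probes) and 1.14-fold. The complexins Cplx1 and Cplx2, which clamp and promote fusion, differed by -0.04 and 0.10 log2 units and did not pass, although Cplx2 did with strain as a block (limma adjusted p = 0.0595 without it and 0.0355 with it).

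In the active zone, 4 of 6 probes were higher in hippocampus and 2 higher in striatum. Rims1, a scaffold that brings vesicles to calcium channels (chromosome 1), ran from 8.14 (SM) through 8.87 to 9.92 in hippocampus and from 6.06 (NZW) through 7.75 to 8.88 in striatum. Its difference was 2.13-fold (log2 1.09 ± 0.05 SE, limma adjusted p = 1.73e-48), higher in hippocampus in 90 of 92 strains, and 15 of 97 striatum strains overlapped the hippocampus range. Its relatives Rims2 and Rims3 lay the other way, at -0.28 and -0.21 log2 units (limma adjusted p = 3.68e-09 and 6.84e-04). Unc13b, a Munc13 that primes vesicles, was 1.73-fold higher in hippocampus.

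All 9 probes to endocytic genes were higher in hippocampus, 3 of them past 2-fold. Dnm1, the neuronal dynamin that cuts vesicles from the membrane (chromosome 2), ran on one probe from 7.57 through 8.74 to 10.79 in hippocampus and from 5.97 through 7.62 to 8.94 in striatum. This probe gave 2.35-fold (log2 1.23 ± 0.07 SE, limma adjusted p = 2.52e-40, 92 of 92 strains), and the second Dnm1 probe gave 2.62-fold (1.39 ± 0.09 SE, limma adjusted p = 2.92e-36, 90 of 92 strains). AXB15 was the highest hippocampus strain on both, at 10.79 and 10.78.

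Bin1, amphiphysin 2 (chromosome 18), was past 2-fold on 1 of 3 probes. That probe ran from 4.76 (AXB19b) through 8.92 to 9.80 in hippocampus and from 4.71 (NZW) through 7.6 to 8.22 in striatum, 2.64-fold apart (log2 1.40 ± 0.09 SE, limma adjusted p = 2.34e-35). The other Bin1 probes differed by 1.3-fold and 1.25-fold, so the size of the Bin1 difference depended on the probe. Amph, amphiphysin, which recruits dynamin, was 1.95-fold higher in hippocampus on its strongest probe (chromosome 13, 92 of 92 strains), and without the 4 arrays named above 1 of 94 striatum strains reached the hippocampus range. Another Amph probe was detected on no striatum array and close to background in hippocampus, so that it bounds no fold. Snap91, the clathrin adaptor AP180, differed by 1.80-fold and 1.88-fold on its probes.

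The next question was how far each gene varied among strains. From here on each tissue was normalized on its own, so levels differ slightly from those above. The median SD across strains was 0.285 log2 units for 46 member probes in hippocampus, against 0.298 for all 12273 probes detected there, and 0.410 in striatum against 0.318 for 12248 probes. Over the 90th percentile of all probes lay 4 member probes in hippocampus and 8 in striatum. B6Cc3 was the only repeat of a strain. Its 2 arrays differed by a median of 0.310 log2 units over the member probes in hippocampus and 0.478 in striatum. The medians over all probes were 0.275 and 0.362, and the largest differences of a member probe 1.16 and 1.62.

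In striatum the glutamate transporters were among the 3 member probes of largest spread, with an SD of 1.22 for Slc17a7 and 1.03 for Slc17a6 (1.18 and 1.01 without KK). Slc17a7 was lowest in AXB12 (7.46) and BXD11 (7.53) and highest in KK (14.01) and BXH22 (12.80). Slc17a6 was lowest in the same strains, AXB12 (6.59) and BXD11 (6.81), and highest in BXH9 (11.11) and BXD6 (10.87). Stx1a, at an SD of 0.616 (0.589 without KK), was lowest in AXB12 (10.39) and highest in KK (13.25) and BXH22 (13.06). In hippocampus the SD of Slc17a7 was 0.516, from 11.29 (AXB13) to 13.79 (C3H). Between the 2 B6Cc3 arrays Slc17a7 differed by 1.39 log2 units in striatum and 1.02 in hippocampus. The difference of a single pair of arrays is not on the same scale as an SD. In striatum Slc17a6 differed by 0.786 and Stx1a by 0.845 between them. Differences among strains and array error cannot be told apart in these spreads.

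One Syt11 probe (ILMN_3063644) had the largest SD in hippocampus, 0.697, and the next largest after Slc17a7 in striatum, 1.08 (0.944 without KK). Syt11 is a synaptotagmin that does not bind calcium (chromosome 3). In hippocampus the probe was lowest in C3H (7.93) and AXB6 (7.93). These were also the 2 strains farthest from the hippocampus median on Syt11 probe ILMN_3141334, the second Snap91 probe and the Bin1 probe past 2-fold. The 2 B6Cc3 arrays differed on ILMN_3063644 by 0.799 log2 units in hippocampus and 0.0254 in striatum. In striatum ILMN_3063644 was lowest in KK (4.91), BXD38 (5.30) and BXA12 (5.91). The same few striatum arrays were lowest for other members: on the second Dnm1 probe BXA12 was at 5.05, BXD38 at 5.36 and BXA2 at 5.75, and on the second Snap91 probe BXA12 was at 4.89, BXA2 at 5.22 and BXD38 at 5.81. The low end of these probes in striatum was thus held by the same few arrays, of which BXA12 had a rank correlation of 0.922 with its tissue, the lowest after SM, NZW and KK. The part of array quality in these values was not tested.

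The remaining members with large spread were Sv2b (SD 0.609 in hippocampus and 0.643 in striatum), both Dnm1 probes (0.517 and 0.519 in hippocampus), and Snap91 (0.482 on its first probe in hippocampus and 0.636 on its second in striatum). The first Snap91 probe ran in hippocampus from 7.22 (BXH22) to 9.68 (BXD38). The Dnm1 probes were highest in hippocampus in AXB15 (10.70 and 10.69), AXB10 and BTBR. Between the hippocampus B6Cc3 arrays the Dnm1 probes differed by 0.584 and 0.659 log2 units, Sv2b by 0.897 and the first Snap91 probe by 0.503. Between those of striatum, Sv2b differed by 0.0185 and the second Snap91 probe by 0.0294.

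For some members the strains fell into separate levels. The strains were said to have 2 levels where a mixture of a pair of normal curves was preferred, with means at least 3 SD apart and at least 6 strains in each. This held for 5 of 46 member probes in hippocampus (7.41% of all probes detected there) and 4 of 46 in striatum (8.06%). The probe sequences were not used here, so whether strains differ in the sequence under a probe was not tested.

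Sv2a, the vesicle glycoprotein that binds the drug levetiracetam (chromosome 3), had 2 levels in both tissues and on both of its probes, which correlated at r = 0.972 in hippocampus and 0.971 in striatum. On the first probe 28 of 98 strains were low in hippocampus (12.25 ± 0.15 SD) and 70 high (13.12 ± 0.15 SD), 1.83-fold apart. In striatum 25 were low (12.16 ± 0.16 SD) and 70 high (13.01 ± 0.17 SD), 1.80-fold apart. The low level was found in 0 of 30 BXD, 8 of 27 AXB or BXA, 1 of 11 BXH and 19 of 30 other inbred strains of hippocampus. Of the parent strains, B6 (13.13), DBA (13.06) and C3H (12.89) were high in hippocampus and AJ (12.16) low. The low BXH strain, BXH10 (12.14), thus lay below both of its parents.

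A strain's Sv2a level was the same in both tissues for 87 of 93 strains. The 6 that differed were AXB15, AXB19, BXA12, BXH7, C3H and KK. Of these, AXB15 was high in hippocampus (12.85) and low in striatum (12.03), and AXB19 low in hippocampus (12.17) and high in striatum (12.98), which are the 2 labels that did not match between tissues over other probes. Within the levels of the first probe r was -0.185 in 66 high strains (rho = -0.177, permutation p = 0.137 and 0.156) and 0.163 in 21 low strains (rho = 0.204, permutation p = 0.481 and 0.373). On the second probe 8 strains differed in level, and r was -0.255 in 65 high strains (rho = -0.250, permutation p = 0.0396 and 0.0446) and 0.246 in 20 low strains (rho = 0.217, permutation p = 0.301 and 0.358).

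Syt4 (chromosome 18) had 2 levels in both tissues as well, and its low strains were all among the other inbred strains. In hippocampus 8 strains were low (11.56 ± 0.34 SD) and 90 high (12.66 ± 0.11 SD), 2.15-fold apart, and in striatum 7 were low (11.81 ± 0.60 SD) and 88 high (13.17 ± 0.16 SD), 2.58-fold apart. The low strains of hippocampus were BUB (11.02), CAST (11.09), AKR (11.41), FVB (11.71), MA (11.77), LPJ (11.77), NON (11.84) and SWR (11.85). All but SWR were called low in striatum too, so that 92 of 93 strains were called at the same level in both tissues. SWR, at 12.44 in striatum, lay between AKR (12.29), called low, and BXD40 (12.92), called high, and nearer to AKR. Its call thus rests on where the levels were cut. Within the 85 high strains r was 0.0965 (rho = 0.0467, permutation p = 0.378 and 0.668), and within the 7 low strains 0.654 (rho = 0.286, exact permutation p = 0.104 and 0.556).

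Sv2b, the second SV2 glycoprotein of this list (chromosome 7), had 3 strains far below the rest: CAST at 8.62 in hippocampus and 8.40 in striatum, C58 at 10.85 and 9.85, and CE at 10.85 and 10.28. With these left out, as an alternative added after seeing the data, 2 levels were called in hippocampus, 38 high strains (12.73 ± 0.13 SD) and 57 low strains (11.89 ± 0.22 SD), 1.79-fold apart, but not in striatum. The high level was found in 24 of 30 BXD, 8 of 27 AXB or BXA, 3 of 11 BXH and 3 of 27 other inbred strains. B6 was high (12.75), and DBA (11.89), AJ (11.94) and C3H (11.62) were low. In striatum, the 38 strains high in hippocampus had a mean of 12.02 ± 0.33 SD and the 52 low strains 11.17 ± 0.32 SD. Within these levels r was 0.0897 (rho = -0.0292, permutation p = 0.592 and 0.863) and -0.233 (rho = -0.252, permutation p = 0.0966 and 0.0706).

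Syn2 had 2 levels in hippocampus, with 11 strains low (12.88 ± 0.26 SD) and 87 high (13.91 ± 0.18 SD), 2.04-fold apart. The low strains were 4 of 11 BXH and 7 of 30 other inbred strains, with the parents C3H (12.52) and DBA (13.26) among them. No BXD, AXB or BXA strain was low. DBA, a parent of the BXD strains, lay near the upper end of the low strains, and BXH22, at 13.38, was called high. In striatum DBA was at 12.84 and C3H at 12.10. In striatum no separate levels were called, yet the 9 low strains measured in both tissues had a striatum mean of 12.04 ± 0.35 SD and the 84 high strains 12.77 ± 0.24 SD. Within the levels r was 0.690 in the 9 low strains (rho = 0.567, exact permutation p = 0.0296 and 0.121) and -0.0718 in the 84 high strains (rho = -0.0296, permutation p = 0.517 and 0.788). Cplx2 had 6 low strains in striatum alone (11.46 ± 0.39 SD against 12.59 ± 0.23 SD). Its lowest striatum strain was KK, and BXD38 without the 4 arrays named above. On this probe the 2 striatum B6Cc3 arrays differed by 1.51 log2 units, so strain levels and array error cannot be told apart. The Syt11 probe described above had 9 low strains in hippocampus alone, among them C3H and AXB6.

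**Figure D2:**
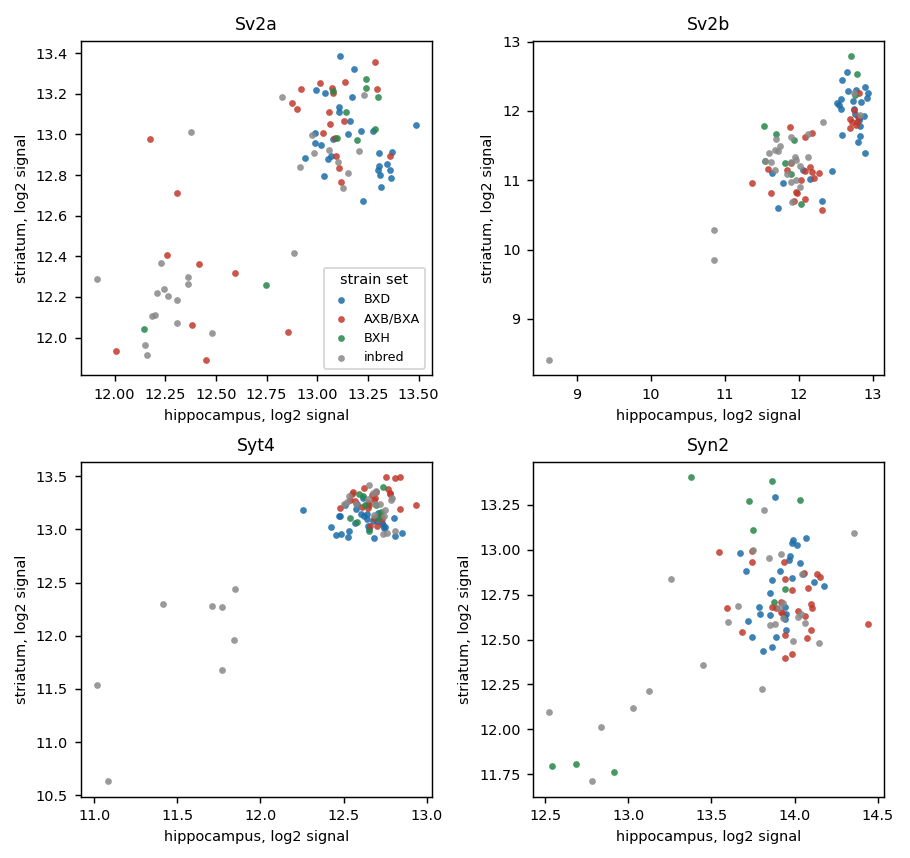
Log2 signal in striatum against that in hippocampus for Sv2a (first probe), Sv2b, Syt4 and Syn2, with 1 point per strain (93 strains) coloured by strain set. The points of Sv2a and Syt4 form a low and a high cloud in both tissues, those of Sv2b a pair of clouds with CAST, C58 and CE below them, and the low end of Syn2 holds BXH and other inbred strains.

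Across the 45 probes detected in both tissues, the levels of hippocampus and striatum were correlated over 93 strains. A positive correlation at adjusted p under 0.05 was found for 17 of 45 member probes and a negative one for 0 (two-sided test of r, Benjamini-Hochberg adjustment over 11746 probes), beside 57.5% and 0.119% of all probes. At an unadjusted permutation p under 0.05, 21 had a positive and 0 a negative r. The median r was 0.196 for members and 0.270 for all probes. An r over 0.5 was reached by 5 member probes, beside 21.5% of all probes, and these were the probes to Sv2a, Syt4, Sv2b and Syn2, whose strains fall into levels, for which no pooled r is given. The vesicle membrane proteins held 8 of the 17 positive probes (of 12), against 1 of 6 in the active zone and 2 of 8 in endocytosis.

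Of the members without levels, the first Snap91 probe had the highest r, 0.437 (rho = 0.435, permutation p = 2e-05 and 1e-05, adjusted p = 4.20e-05 over all probes), and 0.458 without the 2 strains farthest from the median. Syngr3, a synaptogyrin of the vesicle membrane, had r = 0.412 (rho = 0.425, permutation p = 4e-05 and 3e-05, adjusted p = 0.000135, 0.412 without 2 strains). Slc17a7 had r = 0.378 (rho = 0.360, permutation p = 0.00015 and 0.00037, adjusted p = 0.000548, 0.329 without C3H and I). For Slc17a7 the relation did not hold in every strain set, with r = 0.278 in AXB or BXA and 0.570 in the other inbred strains but -0.197 in BXD and -0.491 in BXH.

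The lowest r was that of a Syt11 probe (ILMN_1233402), -0.157 (rho = -0.155, permutation p = 0.134 and 0.139, adjusted p = 0.189, -0.197 without 2 strains). This probe stood at the top of the scale, where 28 striatum and 5 hippocampus strains shared the highest value that the normalization gives, so it could not order those strains. Next came Pclo, the active zone scaffold Piccolo, on its first probe (r = -0.0529, rho = -0.0722, permutation p = 0.614 and 0.49, adjusted p = 0.682), Rims1 (r = -0.0517, rho = 0.0192, permutation p = 0.623 and 0.854, adjusted p = 0.689) and the remaining Syt11 probe (r = -0.0140, rho = 0.0333, permutation p = 0.890 and 0.748, adjusted p = 0.919). Without the 2 farthest strains these were -0.0233, -0.0793 and 0.0227. Slc17a6, despite its wide range in striatum, had r = 0.0567 (rho = 0.0807, permutation p = 0.589 and 0.442, adjusted p = 0.660, -0.00271 without 2 strains).

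**Figure D3:**
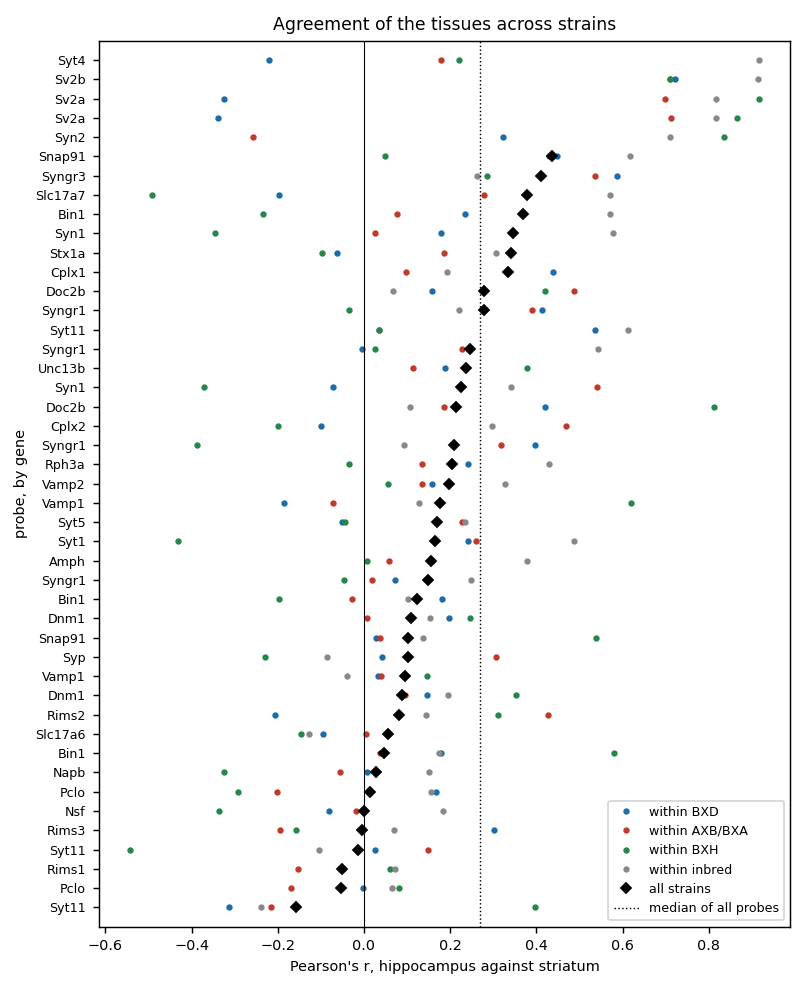
Pearson's r between hippocampus and striatum across 93 strains for each of 45 member probes (black diamonds) and within each strain set (coloured dots). Probes whose strains fall into separate levels have no pooled value. The dotted line is the median of all 11746 probes, 0.270, and the member median was 0.196.

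The strain sets also differed in level. In hippocampus 20 of 46 member probes differed among the 4 sets (limma moderated F, adjusted p under 0.05), beside 31.6% of all probes, and in striatum 31 of 46, beside 55.2%. The scan or hybridisation batch of an array is not given in the sources used here, so strain set and any such batch cannot be told apart.

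In hippocampus the range of set means was widest for Sv2b, from 12.57 ± 0.36 SD in BXD to 11.74 ± 0.71 SD in the other inbred strains (limma adjusted p = 1.02e-05), a range of 0.83 log2 units. The second Sv2a probe (0.71), the first Dnm1 probe (0.70), the first Sv2a probe (0.65), the second Dnm1 probe (0.63) and Syn2 (0.55) followed. Sv2a ran from 13.18 ± 0.14 SD in BXD to 12.53 ± 0.42 SD in the other inbred strains on its first probe (limma adjusted p = 6.47e-08). Dnm1 was highest in AXB or BXA (9.16 ± 0.56 SD) and lowest in BXD (8.46 ± 0.31 SD) on its first probe (limma adjusted p = 6.40e-06) and likewise on its second (9.11 and 8.47, limma adjusted p = 1.03e-04). Syn2 was lowest in BXH (13.40 ± 0.57 SD) and highest in AXB or BXA (13.96 ± 0.19 SD, limma adjusted p = 1.99e-04).

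In striatum the widest ranges belonged largely to other genes. Slc17a7 was highest in BXH (11.67 ± 0.76 SD) and lowest in AXB or BXA (9.98 ± 1.15 SD, limma adjusted p = 1.3e-05). Slc17a6 (9.60 ± 1.10 SD and 8.36 ± 0.91 SD, limma adjusted p = 0.00931) and Stx1a (12.14 ± 0.58 SD and 10.93 ± 0.37 SD, limma adjusted p = 4.72e-08) were highest and lowest in the same sets, as they were in hippocampus over smaller ranges (0.39 and 0.30 log2 units, limma adjusted p = 0.0344 and 0.00154). So were the second Snap91 probe (7.88 ± 0.41 SD and 6.75 ± 0.61 SD, limma adjusted p = 1.46e-08) and the Bin1 probe that passed 2-fold (7.90 ± 0.23 SD and 7.15 ± 0.66 SD, limma adjusted p = 2.72e-04). The reverse held for the Doc2b probe with the larger tissue difference, highest in AXB or BXA (10.53 ± 0.27 SD) and lowest in BXH (9.48 ± 0.46 SD, limma adjusted p = 1.63e-08). The mean of the cortical excitatory neuron markers in striatum moved with the sets too, at 8.12 ± 0.62 SD in BXH (7.33 to 8.94) and 7.10 ± 0.49 SD in AXB or BXA (6.25 to 8.27), and so did that of the medium spiny neuron markers (12.32 ± 0.53 SD and 12.84 ± 0.11 SD). Their part in the set differences was not tested.

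Finally the genes were compared with each other across strains, with 1 probe for each of 31 genes and 465 pairs per tissue. This is a description, since all pairs share the same arrays. In hippocampus the mean r over the pairs was 0.0373, against 0.00574 over all genes. There 3.01% of pairs had r over 0.5, against 0.929%, and 2.37% had r under -0.5, against 0.393%. In striatum the mean r was 0.168, against 0.00367. There 16.6% of pairs had r over 0.5, against 1.57%, and 1.51% had r under -0.5, against 1.01%. The first principal component of the members took 18.8% of their variance in hippocampus and 33.4% in striatum. Single arrays weighed on it, with AXB15 holding 16.2% of the scores' sum of squares in hippocampus and KK 18.7% in striatum, whereas without AXB15 the component took 17.3% in hippocampus (mean r 0.0385) and without KK 31.5% in striatum (mean r 0.172). Centring the arrays on the median in place of quantile normalization gave 0.175 in hippocampus and 0.249 in striatum, against 0.0701 and 0.0988 over all genes. The hippocampus mean depended on other choices as well, at 0.0954 with the authors' processed values and 0.0106 with the probe of largest SD for each gene, where striatum gave 0.175 and 0.158.

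**Figure D4:**
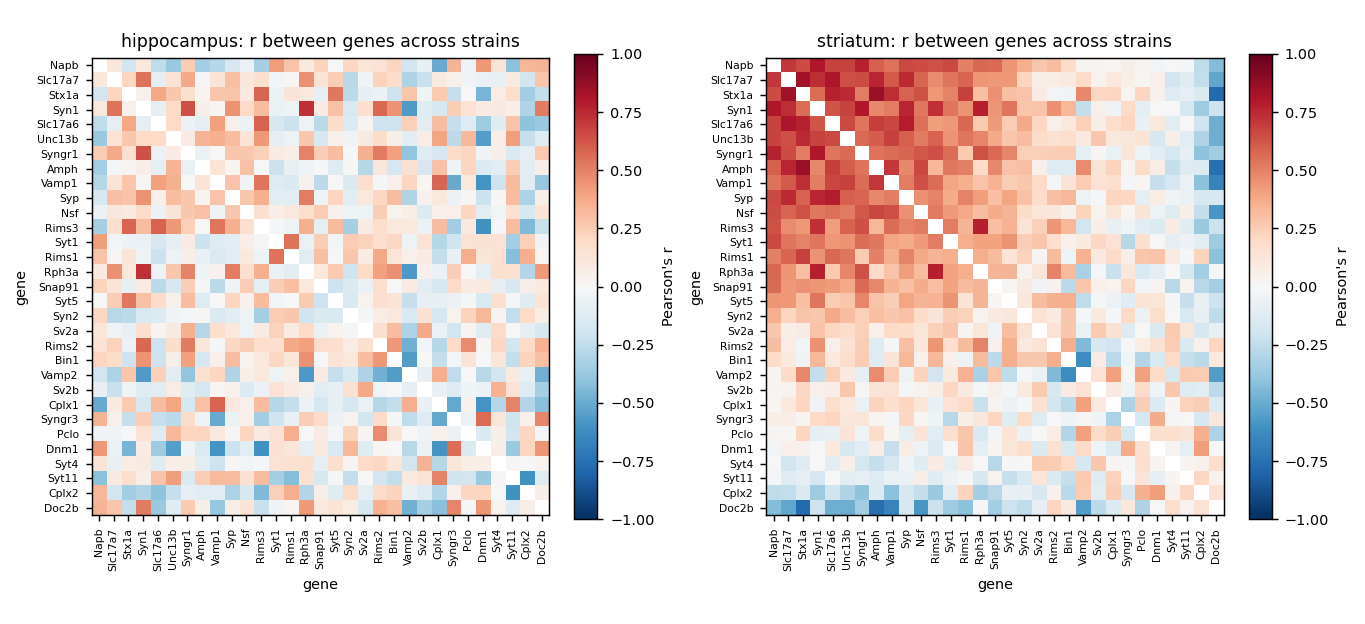
Pearson's r between 31 member genes across strains, in hippocampus (98 strains) and in striatum (95 strains), with the genes of both in one order, by their r with the first component in striatum. The striatum matrix holds a block of high positive r around Slc17a7, Slc17a6, Stx1a, Amph, Syn1 and Napb, and a row of mostly negative r for Doc2b. The hippocampus matrix is paler there (mean r over all pairs 0.168 in striatum and 0.0373 in hippocampus), but not in every cell. In hippocampus Syn1 had r = 0.544 with Slc17a7 and 0.523 with Doc2b.

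The 6 highest pairs in striatum are given first. Stx1a and Amph, shown above by their promoter windows, had r = 0.867 (rho = 0.850), and 0.0250 in hippocampus. Slc17a7 and Stx1a had r = 0.838 (rho = 0.851), and 0.213 in hippocampus. The transporters Slc17a6 and Slc17a7 had r = 0.812 (rho = 0.811), and -0.0966 in hippocampus. Syn1, the X-linked synapsin, followed with Syngr1, a synaptogyrin, at r = 0.804 (rho = 0.777, and 0.644 in hippocampus), then with Napb at 0.80 (rho = 0.753, and 0.109 in hippocampus), and Syp and Slc17a6 were at 0.787 (rho = 0.767, and 0.0513 in hippocampus). Of these 6 pairs, Syn1 with Syngr1 thus had a high r in both tissues. Without the 2 strains farthest from the median the 6 pairs were between 0.744 and 0.838.

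Doc2b moved against this block. It had r = -0.778 with Stx1a (rho = -0.729), -0.755 with Amph (rho = -0.696) and -0.671 with Vamp1 (rho = -0.516) in striatum, and -0.727, -0.690 and -0.548 without KK and BXH22. In hippocampus the same pairs were at -0.240, 0.0556 and -0.378. The permutation p of r and of rho was 1e-05 for each pair named here and in the next paragraph, the smallest that 100000 permutations can give, which takes no account of the choice of these pairs as the most extreme of 465.

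Of the 6 highest pairs in hippocampus, Syn1 with Syngr1 was also among the 6 highest in striatum. Syn1 and Rph3a had r = 0.734 (rho = 0.644), and 0.779 in striatum, Syn1 and Syngr1 0.644 (rho = 0.630), and Syn1 and Rims2 0.575 (rho = 0.647). Rims3 followed Slc17a6 (r = 0.592, rho = 0.497) and Stx1a (r = 0.586, rho = 0.556), and Vamp1 followed Cplx1 (r = 0.580, rho = 0.499). The most negative pairs were Rims3 with Dnm1 (r = -0.606, rho = -0.504), the Syt11 probe at the top of the scale (ILMN_1233402) with Cplx2 (-0.603, rho = -0.548) and Vamp1 with Dnm1 (-0.601, rho = -0.499). The other Syt11 probes had r = 0.280 and 0.254 with Cplx2, so the negative value was found on that probe only. Which probe best reads Syt11 was not tested. Leaving out the 2 farthest strains gave 0.475 to 0.623 for the positive and -0.609 to -0.501 for the negative pairs.

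Cell type markers moved with the striatum block. The mean of the cortical excitatory neuron markers had r over 0.5 with 14 of 31 members in striatum and under -0.5 with 1 (13 and 1 without KK), against 1 and 0 in hippocampus. The values were 0.926 for Slc17a7, 0.914 for Stx1a, 0.838 for Slc17a6, 0.804 for Amph and -0.637 for Doc2b, and 0.920, 0.905, 0.840, 0.778 and -0.571 without KK. BXH22 had a cortical marker mean of 8.94 and a medium spiny marker mean of 11.12 on the scale within striatum, and KK 9.66 and 9.01, beside 6.27 and 13.07 in AXB12, where Slc17a7 was lowest. The medium spiny marker mean had r over 0.5 with 1 member, Doc2b (0.746), and under -0.5 with 11 (1 and 12 without KK). The mean of 5 interneuron markers had r over 0.5 with 14 members and under -0.5 with 1, and over 0.5 with 9 once KK was left out. The mean of the oligodendrocyte markers had r under -0.5 with 7 members (lowest -0.646, for Syngr1), and with 2 without KK. The same counts over all detected genes are not given here, so whether they are particular to the vesicle genes is not known. The part of these cells in the block was not tested.

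After the cortical marker mean was regressed out of each gene, the mean r over the striatum pairs was 0.0452, and after the medium spiny marker mean it was 0.127. Slc17a7 with Stx1a went from 0.838 to -0.0607 and Slc17a6 with Slc17a7 from 0.812 to 0.177. Other pairs kept more of their r: Stx1a with Amph was at 0.545, Syn1 with Syngr1 at 0.618, Syn1 with Napb at 0.531, Syp with Slc17a6 at 0.430, and Doc2b with Stx1a at -0.625. In hippocampus the mean r was 0.0335 after the same step. Whether the amount of cortical tissue in a striatum sample sets these levels was not tested.

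**Figure D5:**
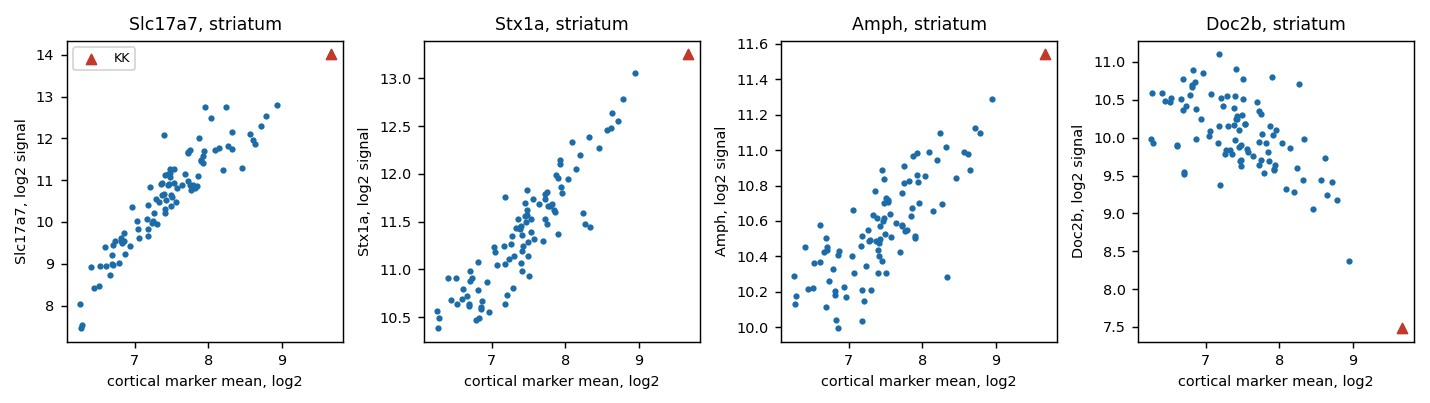
Log2 signal of Slc17a7, Stx1a, Amph and Doc2b in striatum against the mean log2 signal of the cortical excitatory neuron markers on the same array, with 1 point per strain (95 strains) and KK as a red triangle. Slc17a7, Stx1a and Amph are higher along the axis (r = 0.926, 0.914 and 0.804) and Doc2b lower (r = -0.637), with KK and BXH22 at the right end.

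Where a gene had more than 1 detected probe, the probes were compared. Of 19 pairs in 10 genes, 12 had r under 0.2 in hippocampus and 10 in striatum (median 0.106 and 0.170), and 5 pairs lay on opposite sides of 0 between tissues. The Sv2a, Vamp1, Dnm1 and Pclo pairs agreed (r = 0.714 to 0.972), as did one pair of Syngr1 probes (0.688 and 0.821). The Snap91 probes did not (0.0573 in hippocampus and 0.110 in striatum), although both were higher in hippocampus. The Syn1 probes correlated at 0.111 and 0.514 and the Doc2b probes at 0.121 and 0.622. Among the Bin1 probes r lay between -0.349 and 0.106, and the pairs of opposite direction all involved 1 Syngr1 probe that did not pass the tissue test (-0.08 log2 units) or the Syt11 probe at the top of the scale (-0.17). What is said above of Snap91, Bin1, Syt11, Syngr1, Syn1 and Doc2b therefore holds for the probe used and not for the gene as a whole. In the pairs these were ILMN_1235133 for Syn1, ILMN_2652711 for Syngr1 and ILMN_2930602 for Doc2b.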

How the data were processed

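Total RNA of whole hippocampus (100 arrays) and whole striatum (98 arrays) of male mice had been hybridised to Illumina bead arrays and read with BeadStudio by the authors. For each array the deposited tables give every probe's signal intensity, with the detection p-value BeadStudio put on it. The authors describe rank-invariant normalization. The deposited intensity equalled the series table in 100% of hippocampus values and in 0.0765% of striatum values (relative tolerance 1e-04), so the 2 tissues' tables had not been through the same steps. The series table, the authors' processed intensity, was used as an alternative. No depth is counted on arrays, whose number limits the precision.

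Background was corrected by normexp from the detection p-values with an offset of 16, then log2 signals were quantile normalized, jointly for the tissue comparison and within each tissue for the rest (R 4.3.3, limma 3.58.1). Correlations, permutations (100000) and figures were made in Python 3.11.15 with numpy 2.4.6, scipy 1.17.1, pandas 2.3.3 and matplotlib 3.10.9. The scripts were tested on simulated data. A probe was kept where its detection p was under 0.01 on at least 20% of arrays, in either tissue for the tissue comparison, in both for the correlation. Of 25697 probes, 23978 had 1 symbol in the platform annotation and 1719 none. Of the per-sample columns, 0 were left unused. The 2 B6Cc3 arrays of a tissue were averaged.

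Tissues were compared with lmFit and eBayes, strain sets with a moderated F, and each r with a two-sided test, all with Benjamini-Hochberg adjustment over all probes tested at 0.05. Separate levels needed a drop of over 10 in the Bayesian information criterion, means at least 3 SD apart and at least 6 strains in each. Strains pair the tissues: deviations from the tissue means correlated with a median of 0.477 over 96 pairs (-0.0895 to 0.843), above 0.1 in 93 of them. The members and lists were chosen with earlier results of these data known. Values are given in full for probes called at 2-fold, the 8 highest and 4 lowest r between tissues, the 6 largest SDs per tissue, the 6 highest and 3 lowest pairs per tissue, the 6 widest ranges of strain set means, and genes whose probes disagree. Alternatives were the authors' processed values, no background correction, another offset, centring on the median, other detection filters, a strain block, single strain sets, and leaving out the arrays that stood apart. Chosen after seeing the data were the alternatives without AXB15 and AXB19, with 129X1 paired to X129X1, and after the cortical or medium spiny marker mean, the parents' values, the separate levels, Sv2b without CAST, C58 and CE, SDs without KK, first components without AXB15 or KK, and the bound on Synpr. Probe sequences were not used here, and 1 marker is not reported here.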

Additional observations from a re-analysis of the deposited data

How the results depend on the processing

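Of the counts and medians above, 84 values under alternatives stayed close to the reported one and 14 moved. The 7 member probes at least 2-fold higher in hippocampus became 3 with the authors' processed values, 3 without background correction, 15 in AXB or BXA strains alone, 2 in BXH alone and 35 at any fold. The 1 higher in striatum became 0 with the authors' processed values, without background correction and with an offset of 50, where limma still put 6, 7 and 7 member probes higher in striatum at any fold (7 in each at an unadjusted p under 0.05), and 7 at any fold in the reported fit. With strain as a replicate block, the paired fit gave 7 and 1. The block changed the call of 1 member probe at any fold, Cplx2 (log2 0.10, adjusted p = 0.0595 without and 0.0355 with the block, both limma). The 17 positive correlations became 11 with all arrays and 18 without AXB15 and AXB19. Within single sets they became 3 in BXD (30 strains), 5 in AXB or BXA (27), 2 in BXH (10) and 12 in the other inbred strains (26). Over all probes the 6758 positive correlations became 2049 in BXD, 1461 in AXB or BXA, 490 in BXH and 4845 in the other inbred strains. The 20 member probes that differed among strain sets in hippocampus became 12 with all arrays. Over all probes, the counts 498 and 450 at 2-fold became 240 and 199 with the authors' processed values and 239 and 226 without background correction, and the 3873 probes that differed among strain sets in hippocampus became 2279 with all arrays. Single sets hold fewer strains by construction, yet the counts of positive correlations did not follow the number of strains from set to set. The cause of the changes was not tested.

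For single probes, 179 values under alternatives stayed, 31 no longer passed and 6 changed sign, the last all within 1 strain set. These were Syt4 (r = -0.221), both Sv2a probes (-0.325 and -0.338) and Slc17a7 (-0.197) in BXD, Slc17a7 in BXH (-0.491) and Syn2 in AXB or BXA (-0.258). All BXD strains but at most 1 are at the high level of Sv2a and Syt4, and no AXB or BXA strain is at the low level of Syn2 in hippocampus. Signal over background limits Synpr in hippocampus, and the top of the scale limits the Syt11 probe whose strains share the highest value.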

Other observations

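A list of 75 other genes of the vesicle cycle, of which 63 had a probe, was read beside the members. Of 78 probes tested, 40 were higher in hippocampus and 22 higher in striatum (limma, adjusted p under 0.05), and at 2-fold 7 and 6 were, beside 36.7%, 38.6%, 3.90% and 3.52% of all probes. The striatum side held 3 vesicular transporters. Slc32a1, which loads GABA and is also in the interneuron marker list, ran from 12.97 through a median of 13.93 to 14.27 in striatum and from 11.24 through 12.55 to 12.98 in hippocampus, so that the tissues barely overlapped (2.58-fold higher in striatum, limma adjusted p = 1.64e-83). Slc17a8, the glutamate transporter VGLUT3, ran from 7.24 through 9.36 to 10.05 in striatum and from 5.22 through 6.95 to 8.61 in hippocampus (4.93-fold, limma adjusted p = 1.50e-68). Slc18a3, which loads acetylcholine, was detected on 95.9% of striatum arrays and on 0% of hippocampus arrays, and was at least 1.92-fold higher in striatum, where the bound is the mean of the lowest signals detected on each hippocampus array (limma adjusted p = 4.44e-94). Unc13c, a Munc13, was 4.51-fold higher in striatum (limma adjusted p = 9.32e-78), and one Syt6 probe, detected on 80.6% of striatum and 0% of hippocampus arrays, at least 1.41-fold (limma adjusted p = 9.03e-63). The other Syt6 probe bounds no fold.

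On the hippocampus side stood Syt13 (3.57-fold, limma adjusted p = 2.30e-50), Cadps2, which primes dense-core vesicles (3.29-fold and 2.79-fold on its probes, limma adjusted p = 5.79e-40 and 1.29e-39), Rab3d (2.19-fold, limma adjusted p = 5.00e-55) and the endocytic protein Sh3gl2, endophilin A1, on 2 of 3 probes (2.88-fold and 2.79-fold), whereas its brightest probe gave 1.65-fold. Syt17 was detected on 75% of hippocampus arrays and on 0% of striatum arrays, and was at least 1.29-fold higher in hippocampus by the same kind of bound (limma adjusted p = 2.09e-60). Between tissues, 33 of 69 probes of this list had a positive r (adjusted p under 0.05 over all probes), with a median r of 0.193, beside 57.5% and 0.270 over all probes. Napa, alpha-SNAP, had r = 0.70 (rho = 0.714, permutation p = 1e-05 each, 0.688 without the 2 strains farthest from the median), Lin7c 0.648 (rho = 0.648, permutation p = 1e-05 each, 0.630 without 2 strains) and Slc32a1 0.640 (rho = 0.583, permutation p = 1e-05 each, 0.592 without 2 strains). The r of Napg, gamma-SNAP, was 0.925 (rho = 0.112, permutation p = 0.00132 and 0.288) and rested on BXD19 and AXB19a, without which it was 0.0758.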
